A study of Homo sapiens with 12 samples.

Results

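HLA class I antigen presentation was described here through 9 genes, chosen by name from a table of 59324 genes with earlier results of these data known. They were the heavy chains HLA-B, HLA-C, HLA-E and HLA-F, the light chain B2M and the peptide transporter subunits TAP1 and TAP2. The loading factor TAPBP and the transcriptional regulator NLRC5 completed the set. RNA was sequenced from MDA-MB-468, an established line from a triple-negative breast tumour, in 12 libraries that form 4 groups of 3. One group was the control, another received SAHA at 10 µM for 12 h, the third received sonidegib at 10 µM as a pretreatment of 72 h, and the fourth received both (SAHA + sonidegib), at these doses and times per the treatment protocol. SAHA, or vorinostat, is an inhibitor of histone deacetylases. Sonidegib blocks Smoothened, a membrane protein of the Hedgehog pathway. How long control cells were kept is not in the labels, and neither is the origin of the 3 libraries per group, so a p-value here reflects variation among libraries that may be technical only. A single cell line was used throughout. Values are TPM, a share of all transcripts corrected for transcript length, which allows levels of different genes to be set side by side but keeps no record of read depth.

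Class I molecules carry peptides from inside the cell to its surface, where cytotoxic T cells and natural killer cells read them. The proteasome cuts proteins into peptides, the TAP1-TAP2 transporter moves them into the endoplasmic reticulum, and TAPBP (tapasin) links the transporter to a waiting heavy chain bound to B2M. NLRC5 raises the transcription of many of these genes through a factor complex assembled on their promoters, and interferons raise it through IRF and STAT factors.

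The promoters of the heavy chain genes are known for a compact block of elements upstream of the start. Heavy chain promoters and others of the pathway can hold interferon-stimulated response elements. Promoter entries of RefSeq (GRCh38.p14) were matched by symbol for 7 of the 9 members, all but HLA-E and NLRC5, and the 250 bases upstream of the start were searched on both strands for 5 short motifs. The stretches of HLA-B (chr6:31357225-31357364, minus strand), HLA-C (chr6:31272138-31272277, minus strand) and B2M (chr15:44711347-44711486, plus strand) are printed because these are the 3 most abundant members. Capitals mark matches, on either strand, of 4 motifs: a kappa-B site (GGG and TTCCC parted by any 2 bases), TGACG (the core of a cyclic AMP response element), CCAAT, and an interferon-stimulated response core (GAAA and GAAA parted by any 2 bases).
HLA-B: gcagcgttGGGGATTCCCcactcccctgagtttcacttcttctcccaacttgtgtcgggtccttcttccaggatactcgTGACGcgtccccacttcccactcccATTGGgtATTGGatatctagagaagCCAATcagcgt
HLA-C: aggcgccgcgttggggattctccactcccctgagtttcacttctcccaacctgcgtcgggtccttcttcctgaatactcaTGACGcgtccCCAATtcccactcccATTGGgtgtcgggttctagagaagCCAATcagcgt
B2M: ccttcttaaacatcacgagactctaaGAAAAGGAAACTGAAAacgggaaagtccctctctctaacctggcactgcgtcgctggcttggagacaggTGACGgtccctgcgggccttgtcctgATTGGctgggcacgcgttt

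For 4 further members a window of 30 bases around the interferon-stimulated response core is printed, because HLA-F and TAP1 rose and TAPBP fell with SAHA while sharing that match. The windows are HLA-F (chr6:29723268-29723297, plus strand), TAP1 (chr6:32853816-32853845, minus strand), TAP2 (chr6:32838778-32838807, minus strand) and TAPBP (chr6:33314079-33314108, minus strand).
HLA-F: ctccccagagTTTCTCTTTCtctcccaacc
TAP1: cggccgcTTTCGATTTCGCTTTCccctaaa
TAP2: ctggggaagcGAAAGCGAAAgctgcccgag
TAPBP: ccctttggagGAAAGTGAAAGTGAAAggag
The interferon-stimulated response core was present in 5 of the 7 windows (B2M, HLA-F, TAP1, TAP2 and TAPBP) and in 3.02% of 35116 RefSeq promoter windows of the same length. In B2M, TAP1 and TAPBP the match occurred as a pair of overlapping copies. CCAAT was present in 5 of the 7 windows (32% of all), TGACG in 4 of the 7 (21.2% of all) and the kappa-B site in HLA-B alone (1.97% of all). No match of one motif overlapped a match of another. TTCNNNGAA, an interferon-gamma activated site, was found in none of these 7 windows (6.57% of all). TAP1 has 2 promoter entries, of which the first is counted and printed here, and the second holds 1 match of TTCNNNGAA, at bases -189 to -181 from its start. These are matches of letters in the reference genome, not measured binding sites, and HLA alleles of the cell line can differ from it. The search took exact letters only, so a window without a match, as in HLA-B and HLA-C, may still hold such an element.

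The libraries carried the markers of the line. EPCAM ranged from 178 to 346 TPM, KRT5 from 446 to 617 and EGFR from 516 to 678, while PGR was listed at 0 in all 12 libraries and ESR1 reached at most 1.76 TPM. Several of these markers moved with treatment. KRT8 went from 1864 TPM in control to 865 with sonidegib, KRT18 from 1458 to 739, EPCAM from 336 to 188, and ERBB2 from 10.4 to 24.4 with sonidegib but to 3.94 with SAHA. CDH1 rose with SAHA from 20.8 to 46.9 TPM and had a negative interaction, that is, a smaller SAHA change with sonidegib (-0.67 ± 0.12, adjusted p = 0.00141 in limma). The markers of the line did not share that sign. Of 7 tested, 3 passed as lower for the interaction (19.7% of all genes tested). Another 2 passed as higher (11.8% of all genes tested), EPCAM (0.45 ± 0.12) and KRT8 (0.27 ± 0.058). Leukocytes also express class I genes at high levels. Of 10 leukocyte markers, CD14 was at 207 to 336 TPM and the other 9 summed to at most 1.36 TPM in any library, with CD3D, MS4A1 and NKG7 at 0 in all 12. The sum of those 9 was 0.27 to 0.51 TPM in control, 0.67 to 0.9 with SAHA, 0.71 to 1.19 with sonidegib and 0.47 to 1.36 in the combination. CD14 was lower in the combination than in control (-0.52 on the log2 scale) and had a negative interaction (-0.53), as HLA-E, HLA-F and TAP1 had. Of 8 fibroblast and endothelial markers 1, COL1A1, was tested, at 3.85 TPM in control and 11.95 with SAHA (1.43 ± 0.17, adjusted p = 1.96e-05) with an interaction of -0.74 ± 0.24 (adjusted p = 0.0337). The 8 summed to 3.51 to 4.82 TPM in control, 11.04 to 13.96 with SAHA, 5.21 to 8.16 with sonidegib and 10 to 10.43 in the combination, and none of the other 7 exceeded 1.03 TPM. The part of CDH1, CD14 and COL1A1 in the results on HLA-E, HLA-F and TAP1 was not tested. Genes for 5S ribosomal RNA were listed at 0 in each of 6 sonidegib-free libraries, whereas their total lay at 1488 to 12641 TPM in the 6 others. A difference in preparation or processing and the drug cannot be told apart wherever libraries with and without sonidegib are compared. In bulk RNA, fewer cells of a kind and less RNA per cell cannot be told apart either.

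Members spanned more than 2 orders of magnitude. In control cells HLA-C (1410 ± 47.7 TPM, SD, n = 3) and B2M (1379 ± 71.1 TPM) were highest and overlapped between libraries, and HLA-B followed at 850 ± 83.2 TPM and HLA-E at 198 ± 5.93 TPM. Further down the order were TAPBP (61.7 ± 1.88 TPM), TAP1 (38.3 ± 0.873 TPM), HLA-F (31.7 ± 1.2 TPM) and TAP2 (27.1 ± 4.1 TPM), of which the last pair overlapped. NLRC5 was lowest, at 4.1 ± 0.954 TPM. With SAHA the middle of the order turned: TAP1 (66 ± 2.79 TPM) and HLA-F (54.1 ± 0.822 TPM) stood above TAPBP (41.9 ± 2.02 TPM) in all libraries of that group. With sonidegib the order was that of control. In the combination B2M (1466 ± 195 TPM) led HLA-C (1312 ± 28.4 TPM), and HLA-F (31.9 ± 2.92 TPM) led TAP1 (30.9 ± 5.01 TPM), but both pairs overlapped.

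**Figure D1:**
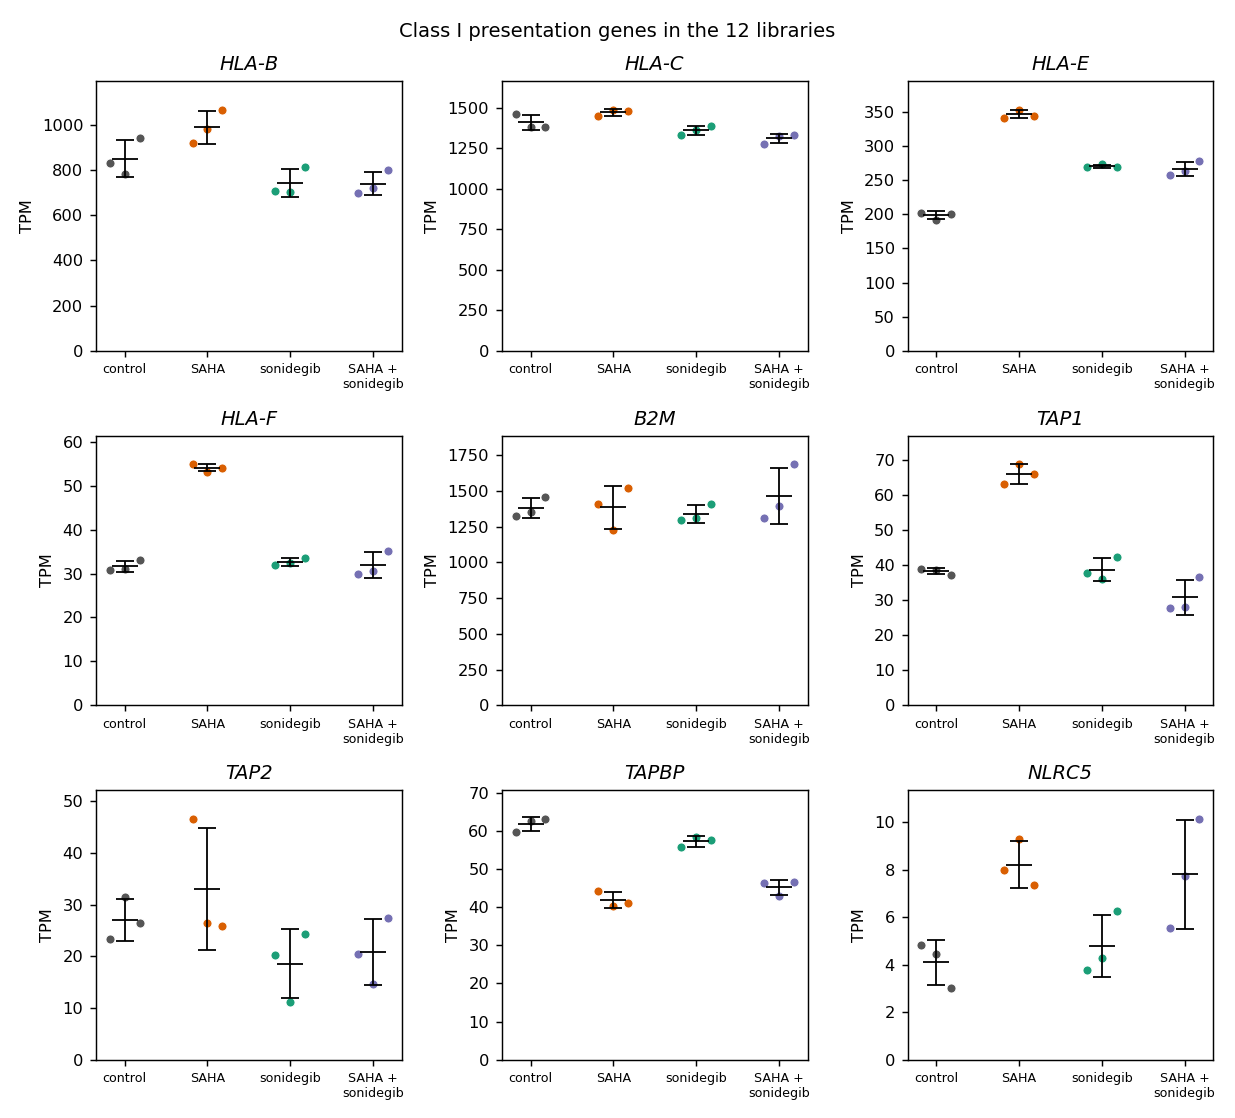
Level of each of the 9 members in TPM (vertical axes, starting at 0) in the 3 libraries of each group; coloured points are libraries, and black bars are the mean and SD. HLA-E, HLA-F and TAP1 are highest in the 3 libraries with SAHA alone, TAPBP is lowest in the SAHA and combination libraries, and HLA-C varies little, while B2M spreads from 1224 to 1686 TPM with all 4 groups overlapping.

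SAHA alone raised HLA-E, HLA-F, TAP1 and NLRC5 and, by a narrow margin, HLA-B, and lowered TAPBP, while HLA-C, B2M and TAP2 did not pass. In limma 5 of 9 members passed as higher, against 31.8% of the 13937 genes tested, and 1 as lower, against 26.9%. The median log2 change was 0.23 over the members and 0.045 over all genes tested. Because members and pathway lists were chosen with earlier results of these data known, such shares describe the sets and do not test them. Libraries of the 2 groups did not overlap for 5 members, as for 63.7% of all genes tested. Changes are given on the log2(TPM + 1) scale as estimate ± standard error (SE), and a call is an adjusted p under 0.05 (limma, Benjamini-Hochberg over all genes tested).

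HLA-E, a heavy chain of low polymorphism that presents signal peptides to natural killer receptors, was at 202.52, 191.62 and 201.14 TPM in control and at 341.61, 353.01 and 344.77 TPM with SAHA. The groups lay far apart compared with their spread, and the log2 change was 0.80 ± 0.042 (adjusted p = 2.99e-08, n = 3 and 3). HLA-F, another heavy chain of low polymorphism, was at 30.79, 31.16 and 33.03 TPM in control and at 54.88, 53.24 and 54.17 TPM with SAHA (0.75 ± 0.065, adjusted p = 1.69e-06). Every SAHA library was above every control library for both genes. The antisense gene HLA-F-AS1 overlaps HLA-F on the opposite strand but reached at most 4.05 TPM.

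TAP1, one subunit of the transporter, was at 38.95, 38.59 and 37.29 TPM in control and at 63.26, 68.84 and 66.03 TPM with SAHA (0.77 ± 0.099, adjusted p = 3.89e-05). Control libraries agreed closely and the SAHA group did not overlap them. TAP1 lies wholly within the annotated span of PSMB9 on the opposite strand, and whether the libraries kept strand was not stated, so reads of the 2 genes may be mixed. NLRC5 was at 4.82, 4.47 and 3.02 TPM in control and at 7.99, 9.3 and 7.36 TPM with SAHA (0.87 ± 0.22, adjusted p = 0.0048). Its groups did not overlap, although its level was low and its spread wide.

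TAPBP moved the other way, from 59.58, 62.47 and 63.12 TPM in control to 44.16, 40.35 and 41.07 TPM with SAHA (-0.55 ± 0.055, adjusted p = 5.24e-06), again without overlap. The calls of HLA-E, HLA-F, TAP1, NLRC5 and TAPBP held in all 22 alternative analyses. HLA-B was at 828.05, 779.31 and 941.52 TPM in control and at 916.96, 979.43 and 1064.37 TPM with SAHA. Its groups overlapped, and the log2 change of 0.22 ± 0.086 passed only narrowly (adjusted p = 0.0478). That call was lost in 12 of 22 alternatives, with adjusted p between 0.00138 and 0.177 over all of them. Among these were leaving out control library 1 (0.20) or 2 (0.16), SAHA library 2 (0.22) or 3 (0.16), and, with the change itself at 0.22, sonidegib library 1 or 2 or combination library 1 or 2, which moved the pooled spread. The others were scaling by median of ratios (0.15) or by the 75th percentile (0.15), no filter on low values and no intensity trend.

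HLA-C and B2M did not pass. HLA-C had a mean of 1410 TPM in control and 1473 TPM with SAHA, and the 95% interval of its log2 change ran from -0.02 to 0.14 (adjusted p = 0.173). It passed as higher after quantile normalization (0.22) and without ribosomal RNA and mitochondrial genes (0.12). For B2M the interval ran from -0.21 to 0.21 around means of 1379 and 1385 TPM (adjusted p = 0.995). Changes much larger than these bounds were outside the intervals, which does not show that the levels were equal.

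TAP2, the partner subunit of TAP1, was scattered. It was at 23.27, 31.41 and 26.49 TPM in control, at 46.6, 26.48 and 25.93 TPM with SAHA, at 20.3, 11.17 and 24.31 TPM with sonidegib and at 20.4, 14.7 and 27.5 TPM in the combination. A single SAHA library stood above all others, no comparison passed, and the SE of each change between 2 groups was 0.30. AL669918.1, a gene model that covers all of TAP2 on the same strand, can share its reads and was looked at after the TAP2 values had been seen. Its mean was 15.3 ± 0.673 TPM in control, 21.4 ± 1.24 with SAHA, 15.3 ± 0.803 with sonidegib and 9.47 ± 0.551 in the combination. It rose with SAHA alone (0.46 ± 0.073, adjusted p = 0.000199) and fell in the combination against sonidegib (-0.64 ± 0.073, adjusted p = 5.04e-05). How the authors' quantifier divided reads between the 2 models is not known, and the value of TAP2 is uncertain for that reason.

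Sonidegib alone changed 1 member. HLA-E rose to 269.08, 273.19 and 268.69 TPM (0.44 ± 0.042, adjusted p = 4.3e-06), above all control and below all SAHA libraries. This was 1 of 9 members higher against 26.1% of all genes tested, and 0 of 9 lower against 29.2%. Groups did not overlap for 2 of 9 members, against 62.3% of all genes. At an unadjusted p under 0.05 the count of lower members was 1, HLA-B, at 707.89, 702.22 and 812.29 TPM (-0.20 ± 0.086, adjusted p = 0.0732 in limma). It passed in 4 of 22 alternatives: without control library 2 (-0.26), without sonidegib library 3 (-0.26), after median-of-ratios scaling (-0.16) and with a replicate block (-0.20). HLA-F at 32.6 ± 0.855 TPM, TAP1 at 38.8 ± 3.35 TPM and NLRC5 at 4.78 ± 1.31 TPM overlapped their control libraries. TAPBP lay just below control in all 3 libraries (55.68, 58.3 and 57.63 TPM) without passing (-0.11 ± 0.055, adjusted p = 0.117). The median over the members was -0.042, and over all genes tested it was -0.022.

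With sonidegib present, SAHA did not bring the rises of HLA-E, HLA-F and TAP1 seen without it. The combination against sonidegib compares libraries that all held 5S ribosomal RNA, as SAHA against control compares libraries that all lacked it, and these comparisons share no library. HLA-E was at 258.35, 263.19 and 278.45 TPM in the combination, overlapping the sonidegib libraries (-0.02 ± 0.042, adjusted p = 0.739, 95% interval -0.11 to 0.07). HLA-F was at 29.86, 30.59 and 35.25 TPM, also overlapping (-0.03 ± 0.065, adjusted p = 0.727, interval -0.18 to 0.11). TAP1 was at 27.85, 28.11 and 36.66 TPM, against 37.84, 36.01 and 42.5 TPM with sonidegib, and fell (-0.33 ± 0.099, adjusted p = 0.0213) although 1 combination library overlapped. The TAP1 call was lost without sonidegib library 3 (-0.26, adjusted p = 0.0844), combination library 1 (-0.26, adjusted p = 0.0789) or combination library 2 (-0.27, adjusted p = 0.0849).

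The interaction, which is the SAHA change with sonidegib minus the SAHA change without it, tests this difference. It was -0.82 ± 0.059 for HLA-E (adjusted p = 2.93e-06), -0.79 ± 0.092 for HLA-F (adjusted p = 9.27e-05) and -1.10 ± 0.14 for TAP1 (adjusted p = 0.000154). These 3 of 9 members passed as lower, against 19.7% of all genes tested, and 0 passed as higher in limma, against 11.8% (1, TAPBP, at an unadjusted p under 0.05). The 3 calls held in all 22 alternatives, with ranges of -0.85 to -0.73 for HLA-E, -0.86 to -0.70 for HLA-F and -1.22 to -1.01 for TAP1. With ribosomal RNA and mitochondrial genes removed and each library rescaled, the values were -0.85, -0.82 and -1.13. Such a rescaling shifts all genes of a library nearly alike, so it does not test effects on single genes. The interaction sets libraries with 5S ribosomal RNA against libraries without it, and other effects of that difference cannot be told apart from sonidegib.

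TAPBP and NLRC5 kept the direction of their SAHA change under sonidegib. TAPBP was at 46.27, 42.95 and 46.48 TPM in the combination, below all sonidegib libraries (-0.33 ± 0.055, adjusted p = 0.000641). Its interaction was 0.22 ± 0.078 (adjusted p = 0.0529), which passed in 6 of 22 alternatives, among them leaving out SAHA library 1 (0.26) or combination library 2 (0.25). NLRC5 was at 5.55, 7.74 and 10.15 TPM in the combination against 3.8, 4.27 and 6.27 TPM with sonidegib. The groups overlapped and the rise of 0.60 ± 0.22 passed narrowly (adjusted p = 0.0476). The call was lost in 12 of 22 alternatives (adjusted p from 0.0155 to 0.177 over all), including the removal of sonidegib library 1 (0.48) or 2 (0.54), of combination library 2 (0.59) or 3 (0.41), and, at an unchanged 0.60, of control library 1 or 2 or any SAHA library. The interaction of NLRC5 was -0.27 with a 95% interval of -0.94 to 0.41, wide enough that neither an equal nor a much smaller SAHA change under sonidegib was resolved. In this comparison 1 of 9 members was called higher (17.5% of all genes) and 2 lower (21% of all genes), and groups did not overlap for 1 of 9 (49.6% of all genes).

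**Figure D2:**
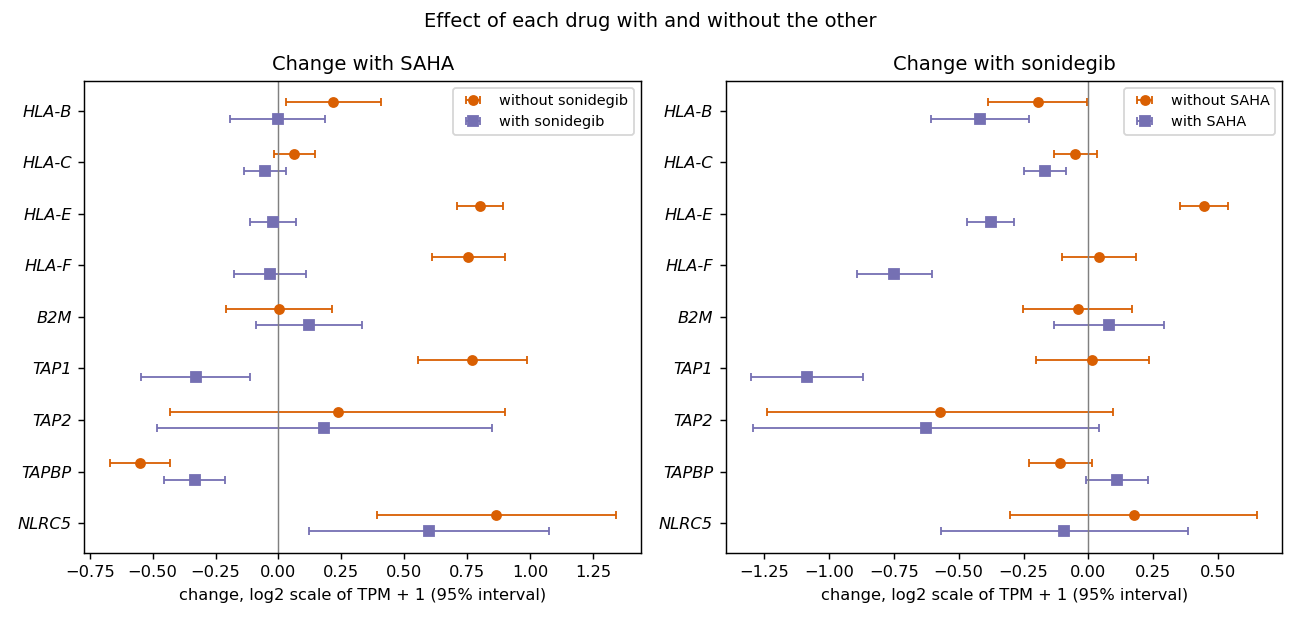
Log2 change (horizontal axes, TPM + 1, with 95% intervals from limma) of each member with SAHA, without and with sonidegib (left), and with sonidegib, without and with SAHA (right). On the left HLA-E, HLA-F and TAP1 lie at 0.75 to 0.80 without sonidegib and at or below 0 with it, while TAPBP lies below 0 and NLRC5 above 0 in both.

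Against control, the combination raised HLA-E (0.42 ± 0.042, adjusted p = 3.82e-06) and NLRC5 (0.77 ± 0.22, adjusted p = 0.00845) and lowered TAPBP (-0.44 ± 0.055, adjusted p = 2.71e-05), TAP1 (-0.31 ± 0.099, adjusted p = 0.0161) and HLA-C (-0.10 ± 0.037, adjusted p = 0.0295). These were 2 of 9 members higher, against 29.7% of all genes tested, and 3 lower, against 34%. Groups did not overlap for 5 of 9, against 66.9%. The 3 comparisons with control share its libraries. TAP1 lost its call without combination library 1 (-0.25, adjusted p = 0.0655) or 2 (-0.25, adjusted p = 0.0673). HLA-C lost its call in 9 of 22 alternatives, and these included every scaling tried. Its fall shrank to -0.05 with median of ratios, -0.03 with the 75th percentile and -0.04 with quantile normalization. Without ribosomal RNA and mitochondrial genes it was -0.05. The HLA-C call was also lost without control library 1 (-0.08) or combination library 1 (-0.09) or 2 (-0.11). With no filter on low values or no intensity trend it was lost at an unchanged -0.10. HLA-B did not pass (-0.20 ± 0.086, adjusted p = 0.0628). It passed in 3 of 22 alternatives: without control library 2 (-0.26), without combination library 3 (-0.25) and with a replicate block (-0.20, adjusted p = 0.00213 in limma).

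Set against SAHA alone, the combination had 5 of 9 members lower, against 33% of all genes tested (50.9% in either direction), and 0 higher in limma, against 18%, also at an unadjusted p under 0.05. TAP1 fell to 0.467 times its level by mean TPM (30.9 against 66 TPM, log2 change -1.08 ± 0.099, adjusted p = 4.53e-06). HLA-F changed by -0.75 ± 0.065 (adjusted p = 3.33e-06), HLA-B by -0.42 ± 0.086 (adjusted p = 0.00182), HLA-E by -0.38 ± 0.042 (adjusted p = 1.91e-05) and HLA-C by -0.17 ± 0.037 (adjusted p = 0.00302). None of these 5 overlapped between the groups, which held for 57% of all genes tested. The median of all genes was itself -0.12 here, and 3 scalings (median of ratios, 75th percentile, quantile) moved it to between -0.009 and 0.003, while it stayed at -0.11 without ribosomal RNA and mitochondrial genes. Relative to that median TAP1 stood at -0.97, HLA-F at -0.63, HLA-B at -0.30, HLA-E at -0.26 and HLA-C at -0.05. After quantile normalization the fall of HLA-E shrank to -0.14, still called, and its rises against control grew to 0.69 in both the combination and sonidegib alone, while the fall of TAPBP in the combination against control shrank to -0.29. The fall of HLA-B shrank to -0.27 under 75th percentile scaling. These calls held. The HLA-C call was lost under scaling by median of ratios (-0.04) or by the 75th percentile (-0.02), while its fall grew to -0.26 after quantile normalization. B2M and TAPBP, at 0.08 and 0.11 in the main analysis and not called, passed as higher after both of these scalings (0.20 and 0.22 for B2M, 0.23 and 0.25 for TAPBP), and TAPBP also after quantile normalization (0.28). Of all calls 35.3% were higher in the main analysis, and 48.4%, 50.2% and 50.1% under those 2 scalings and quantile normalization in turn. For the interaction, 37.5% became 50%, 48.6% and 50.3%, and the median of all genes moved from -0.075 to at most 0.025.

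Other genes of the pathway came from 7 lists with 58 genes, of which 47 were tested. With SAHA alone 20 rose and 13 fell, or 70.2% called against 58.7% of all genes tested. In the combination against sonidegib 10 rose and 16 fell, or 55.3% against 38.5%. The interaction passed for 5 higher and 16 lower, or 44.7% against 31.4%. The combination had 13 higher and 22 lower against control (74.5% called, 63.7% of all genes). Against SAHA it had 5 higher and 18 lower (48.9% called, 50.9% of all genes). Sonidegib alone had 13 higher and 17 lower (63.8% called, 55.3% of all genes). The median log2 change over the 47 genes was 0.11 with SAHA (0.045 over all genes) and -0.22 for the interaction (-0.075 over all genes).

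The immunoproteasome replaces 3 catalytic subunits of the proteasome with PSMB8, PSMB9 and PSMB10 and takes on the PA28 activator of PSME1 and PSME2. With SAHA 3 of these 5 rose and 2 fell, against 31.8% and 26.9% of all genes tested. PSMB9, the head-to-head neighbour of TAP1, went from 32.9 ± 2.78 to 69.7 ± 6.95 TPM (1.06 ± 0.090, adjusted p = 1.41e-06), whereas PSMB8 fell from 160 ± 13 to 106 ± 4.74 TPM (-0.58 ± 0.067) and PSMB10 by 1.17 on the log2 scale. With sonidegib PSMB9 was at 47.9 ± 3.19 TPM and in the combination at 32.5 ± 2.15 TPM, a fall (-0.55 ± 0.090, adjusted p = 0.000631). Its interaction of -1.61 ± 0.13 (adjusted p = 5.95e-06) had the same sign as that of TAP1, with which it shares genomic sequence. PSMB8 fell with SAHA in both settings, and its interaction did not pass (-0.06 ± 0.094, adjusted p = 0.687). The constitutive subunits PSMB5, PSMB6 and PSMB7 all fell with SAHA alone (26.9% of all genes tested), PSMB6 from 192 ± 1.9 to 112 ± 3.22 TPM. All 3 had a positive interaction (11.8% of all genes tested), at 0.70 ± 0.058 for PSMB6.

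Of 7 tested genes for trimming peptides and folding class I chains, 3 rose and 3 fell with SAHA. The shares of all genes tested were 31.8% and 26.9%. The chaperones HSPA5 (1.32 ± 0.082) and CALR, calreticulin (0.70 ± 0.089), were among the rises, and the trimming peptidase ERAP1 (-0.85 ± 0.11) and the tapasin relative TAPBPL (-0.66 ± 0.18) among the falls. For the interaction 0 of the 7 passed in limma, against 31.4% of all genes tested. Of the 7, 1, CANX (calnexin, named after its value was seen), had an unadjusted p under 0.05. CALR rose under sonidegib too, to 895 ± 113 TPM from 642 ± 49.4 TPM (0.47 ± 0.089, adjusted p = 0.0016).

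Among 14 transcription factors of class I promoters 3 rose and 4 fell with SAHA, against 31.8% and 26.9% of all genes tested. IRF1, an interferon-responsive activator, went from 30.4 ± 2.32 to 49.4 ± 3.42 TPM (0.68 ± 0.090, adjusted p = 5.18e-05) and RFX5, a DNA-binding subunit of the complex that NLRC5 joins, from 22.6 ± 4.29 to 32.9 ± 1.82 TPM (0.54 ± 0.11, adjusted p = 0.0016). Both had a negative interaction (-0.39 ± 0.13, adjusted p = 0.0379, and -0.69 ± 0.16, adjusted p = 0.00696). Under sonidegib IRF1 still rose with SAHA (0.29 ± 0.090, adjusted p = 0.0242) and RFX5 was at -0.15 ± 0.11 without passing. NFKB1, a subunit of NF-kB, fell with SAHA in both settings (-1.22 ± 0.16 and -1.03 ± 0.16). RFXANK, the partner of RFX5, fell with sonidegib alone from 159 ± 6.94 to 91.2 ± 4.54 TPM.

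Of 10 tested genes of interferon signalling, 7 rose and 1 fell with SAHA, against 31.8% and 26.9% of all genes tested. JAK1, a kinase of the type I and type II interferon receptors, rose from 60 ± 2.35 to 132 ± 4.22 TPM (1.13 ± 0.052) and, under sonidegib, from 74.4 ± 2.63 to 118 ± 4.74 TPM (0.66 ± 0.052). STAT2, a transcription factor of the response to type I interferon, rose with SAHA alone (0.81 ± 0.13) and had a negative interaction (-0.68 ± 0.18, adjusted p = 0.0131).

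**Figure D3:**
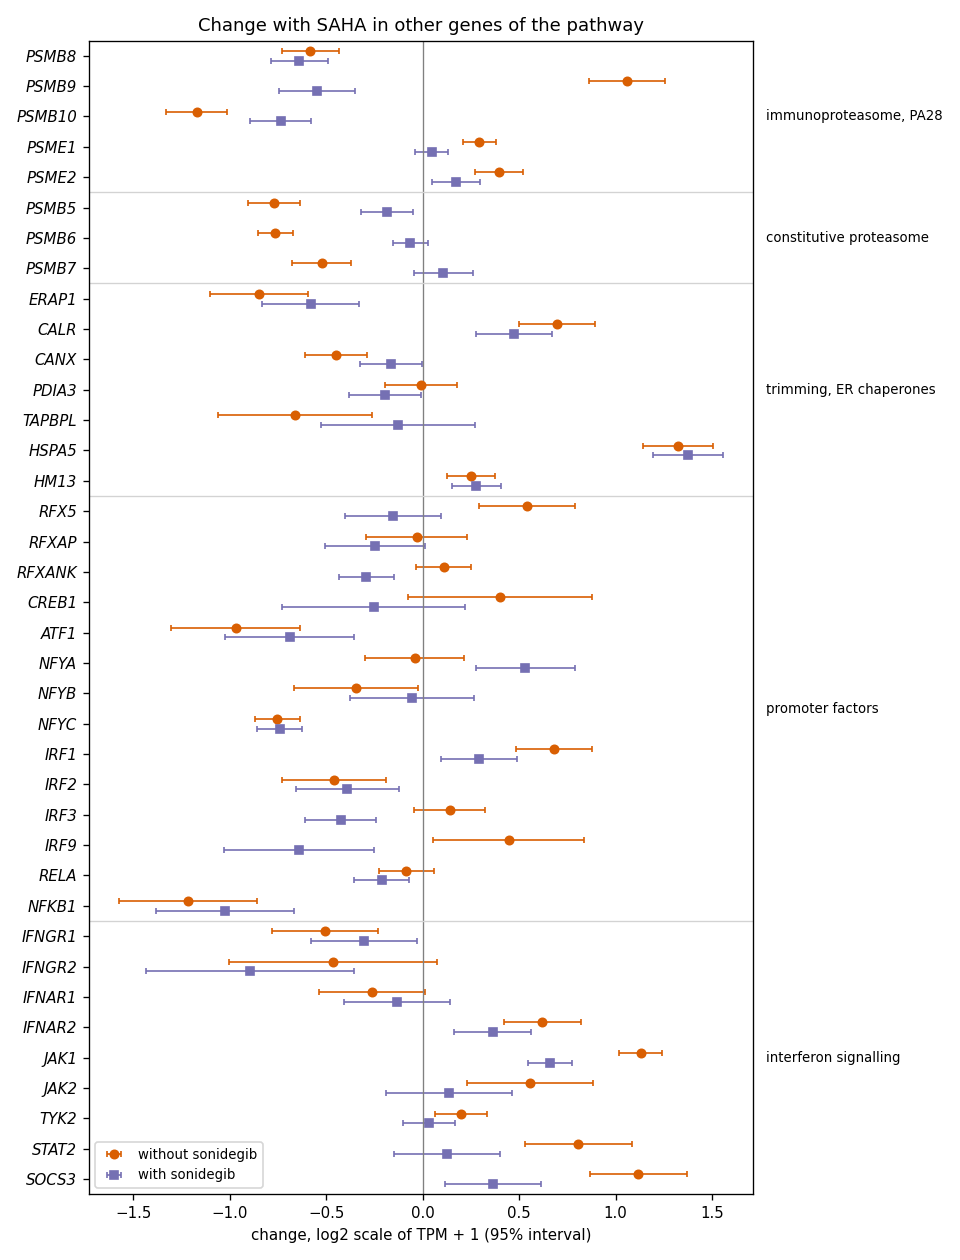
Log2 change with SAHA (horizontal axis, TPM + 1, with 95% intervals from limma) without sonidegib (circles) and with it (squares) in 38 tested genes of 5 pathway lists, grouped from top to bottom. PSMB9 lies at 1.06 without and at -0.55 with sonidegib, while PSMB8, HSPA5 and NFKB1 lie on the same side of 0 in both.

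Class II presentation was scarce: 3 of 10 genes reached the filter, and HLA-DRA stayed below it. HLA-DMA and HLA-DMB, which edit class II peptides, rose with SAHA to 22.4 ± 0.988 and 22 ± 2.38 TPM from 9.17 ± 1.09 and 3.92 ± 0.971 TPM, and both had a negative interaction (-1.39 ± 0.16 and -1.85 ± 0.28). CIITA, the class II counterpart of NLRC5, lay between 0.26 and 1.96 TPM in the 12 libraries and passed in no comparison. Of 5 tested class I-like molecules 2 rose with SAHA (31.8% of all genes tested), PROCR (1.85 ± 0.20) and FCGRT (0.37 ± 0.13). PROCR averaged only 0.78 TPM in control and 5.42 TPM with SAHA. For the interaction 4 of the 5 passed as lower, against 19.7% of all genes tested.

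The members differed in how they varied over the 12 libraries, which share the 4 treatments. As a description over those libraries, TAP1 and HLA-F were most alike (Pearson r = 0.94 on the log2 scale) and TAPBP and NLRC5 most opposed (r = -0.83). Of 9619 other genes averaging 5 TPM or more, CCNY (r = 0.99), RNASET2 (r = 0.97), KAZN (r = 0.95), ASF1A (r = 0.95) and ODR4 (r = 0.95) were most like HLA-B. CCNY had means of 19.1, 21.8, 15.7 and 15.8 TPM in control, SAHA, sonidegib and combination. CDADC1 (r = 0.93), ACOT8 (r = 0.92), TRIM3, HPS5 and GINS4 (each r = 0.91) were most like NLRC5, and CDADC1 had means of 5.99, 10.7, 6.31 and 9.99 TPM.

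By position, 7 members lie in the major histocompatibility complex on chromosome 6 (GRCh38, GENCODE release 29): HLA-F (29722775 to 29738528), HLA-E (30489467 to 30494205), HLA-C (31268749 to 31272130), HLA-B (31269491 to 31357188), TAP2 (32821833 to 32838780), TAP1 (32845209 to 32853978) and TAPBP (33299694 to 33314387). B2M lies on chromosome 15 (44711487 to 44718877) and NLRC5 on chromosome 16 (56989485 to 57083531). The annotated span of HLA-B covers 87698 bases and overlaps HLA-C by 2640 bases on the same strand. It also overlaps USP8P1, a processed pseudogene, by 3183 bases on the opposite strand. USP8P1 was at 274 to 419 TPM, and whether its reads and those of HLA-B were mixed is not known. Heavy chain genes are also close relatives in sequence, and reads of the line's alleles were assigned by an unstated quantifier, so the split between HLA-B and HLA-C is uncertain. Of the members that rose with SAHA, HLA-B, HLA-E, HLA-F and TAP1 lie in the complex, as does TAPBP, which fell, whereas NLRC5 lies outside it.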

How the data were processed

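RNA from 12 MDA-MB-468 libraries was sequenced, 3 per group, with groups and replicate numbers from the labels. The deposited table gives TPM per gene and library, scaled by the authors to the same total in each library and rounded to 2 decimals. Bowtie2 2.4.1 and GRCh38 are named per the submitters' processing notes, while the quantifier, annotation and strand setting are not given in the sources used here. Depth is unknown, so no counting interval was computed. Of 59324 gene identifiers 58611 matched GENCODE release 29, used for coordinates.

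Values were analysed as log2(TPM + 1) in limma 3.58.1 (R 4.3.3), with 4 group means, 8 residual degrees of freedom, an intensity trend and Benjamini-Hochberg adjustment over 13937 genes averaging 1 TPM or more. All 9 members passed that filter. Tests were two-sided and the procedure was tested on simulated data. Alternatives were pseudocounts of 0.1 and 0.5, no filter or one of 5 TPM, 4 scalings, a replicate block, no intensity trend and leaving out each library. Genes of a pathway list were named if they were among the 2 largest rises or the 2 largest falls of their list in some comparison, or were PSMB8, PSMB9, IRF1, RFX5 or CIITA, and 1 further gene fixed by that rule is not reported here. Of the genes this admits, the text gives some. CANX and HLA-DRA stand beside a count. For likeness, the 5 genes with the highest Pearson correlation to HLA-B and to NLRC5 were taken. Members and lists were chosen with earlier results of these data known.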

Additional observations from a re-analysis of the deposited data

Results flagged for a closer look

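The SAHA change differed with and without sonidegib for 3 members, by limma's interaction term. For HLA-E it was -0.8216 on the log2 scale of TPM + 1 (SE 0.059, adjusted p = 2.93e-06), with means of 198 and 347 TPM in control and SAHA and 270 and 267 TPM in sonidegib and combination. For HLA-F it was -0.7883 (SE 0.092, adjusted p = 9.27e-05), with means of 31.7 and 54.1 TPM without and 32.6 and 31.9 TPM with sonidegib. For TAP1 it was -1.0986 (SE 0.14, adjusted p = 0.000154), with means of 38.3 and 66 TPM without and 38.8 and 30.9 TPM with sonidegib. Groups of 3 libraries are too small for a test of single outlying libraries.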

How the results depend on the processing

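Of 54 changes (9 members in 6 comparisons), 40 stayed on their side of the threshold in all 22 alternatives, 14 did not in at least 1, and 0 reversed. The number of all genes called stayed within 1.5 times of the main count in each alternative. The larger relative moves in counts of members were as follows, and their cause was not tested beyond the change of setting itself. In the combination against SAHA 2 members were higher after median-of-ratios scaling, 2 after 75th percentile scaling and 1 after quantile normalization, in place of 0. Of all 13937 genes tested, 3502, 3641 and 3708 were higher under these settings in turn, in place of 2506. In the combination against sonidegib the 1 member called higher, NLRC5, became 0 without a filter and without the intensity trend. Of the other pathway genes 8 were higher against SAHA after 75th percentile scaling and 9 after quantile normalization, in place of 5. The counts over all genes under these 2 settings were the 3641 and 3708 given above. For the interaction 1 member, TAPBP, was higher in place of 0 with a filter of 5 TPM and after median-of-ratios, 75th percentile and quantile scaling. For sonidegib against control 1 member, HLA-B, was lower in place of 0 after median-of-ratios scaling. When single libraries were left out, members higher with SAHA alone numbered 4 to 5, in place of 5. Over all alternatives the HLA-B call among these was lost in 12 of 22. With single libraries left out, members lower in the combination against control numbered 1 to 4, and in the combination against sonidegib 1 to 2, with 0 to 1 higher. For the interaction 0 to 1 were higher, and for sonidegib against control 0 to 1 were lower.

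Whether the replicate numbers pair the libraries was not settled. Deviations of same-numbered libraries correlated at -0.0586 to 0.111, with 1 of 18 pairs over 0.1. Those of different-numbered libraries correlated at -0.107 to 0.0966, a similar range. By mean correlation, 8 of 12 libraries correlated best with their own number. With a replicate block, HLA-B passed as lower with sonidegib (adjusted p = 0.00285), so that 1 member was lower in place of 0, as well as in the combination against control (adjusted p = 0.00213) and for the interaction (-0.22, adjusted p = 0.0174), and in the combination against sonidegib 0 members were higher in place of 1. It moved no other count of members by more than 1.5 times. HLA-B and B2M were highest in library 3 in 4 of 4 groups.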
